A study of Mus musculus with 21 samples.

Results

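The 10 genes described here, Tet1, Tet2, Tet3, Dnmt1, Dnmt3a, Dnmt3b, Uhrf1, Tdg, Idh1 and Idh2, were chosen by name for their part in writing, keeping or erasing DNA methylation, and all 10 were found among the 56953 annotated genes of the count tables. RNA-seq measured them in 21 bulk libraries of B cells sorted from the peritoneal cavity of C57BL/6 mice. B-1a cells were represented by 8 libraries (4 per genotype), B-1b cells by 7 (4 from WT and 3 from TET2-KO mice) and B-2 cells by 6 (2 from WT and 4 from TET2-KO mice). B-1a and B-1b cells were both sorted as cells low in IgD, CD23 and B220, and were divided by surface CD5, which B-1a cells carry. The TET2-KO mice derive from a Tet2 allele built for removal of exons 8, 9 and 10, and the knockout was not limited to B cells, so other cell types of these animals lacked TET2 as well. Age and treatment are not given in the labels. The comparisons ask whether the other writers and erasers of DNA methylation were expressed differently where TET2 was missing, or between the B cell subsets.

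DNA methylation in mammals is placed mainly on cytosines followed by guanine. Dnmt3a and Dnmt3b encode the enzymes that methylate unmodified DNA, whereas Dnmt1 encodes the enzyme that copies the pattern onto the new strand after replication, and Uhrf1 encodes the protein that recognizes sites methylated on the old strand alone and brings DNMT1 to them. Tet1, Tet2 and Tet3 encode dioxygenases that oxidize 5-methylcytosine to 5-hydroxymethylcytosine and further forms, using iron and 2-oxoglutarate, and Tdg encodes a glycosylase that cuts the most oxidized forms out of DNA. Idh1, in the cytosol, and Idh2, in mitochondria, encode isocitrate dehydrogenases that make 2-oxoglutarate. In B cells, TET2 and TET3 are known for acting on enhancers and in the differentiation of germinal center and plasma cells.

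The part of Tet2 that the knockout removes is shown first, because it sets what a count over the whole gene can tell about the genotype. In the GRCm39 genome Tet2 lies on the minus strand at chr3:133169440-133250900, and exons 8, 9 and 10 of its canonical transcript, which has 11 exons, hold 90, 138 and 364 bases. Their sum of 592 bases leaves 1 base after whole codons and is 3.51% of the 16870 exon bases over which Tet2 fragments were counted. Exons 8 and 9 are printed 5′ to 3′ on the minus strand, from chr3:133179357-133179446 and chr3:133177101-133177238, as read from the GRCm39 assembly. The capitals in exon 9 mark the codons for histidine, arginine and aspartate, which begin at base 100 of the exon. This triplet is part of the site that holds the iron of the enzyme.
Tet2 exon 8: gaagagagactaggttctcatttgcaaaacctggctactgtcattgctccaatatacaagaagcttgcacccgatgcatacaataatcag
Tet2 exon 9: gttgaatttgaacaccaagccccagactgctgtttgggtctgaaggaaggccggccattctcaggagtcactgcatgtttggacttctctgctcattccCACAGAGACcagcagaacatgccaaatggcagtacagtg

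Several libraries stood apart before any of the 10 genes was compared. Total counts ranged from 9667187 to 24152518 per library, and the 5 WT libraries numbered 1 and 2 had 18074 to 19255 genes with at least 1 count, against 17816 to 35576 in the other 16. Markers of subset went against the labels in these 5. Fcer2a, which encodes CD23, stood at 815 CPM (fragment counts relative to a library size scaled by the trimmed mean of M values) in the library labelled WT B-1a 1 and at 598 CPM in that labelled WT B-1b 2, but at 24.2 CPM in that labelled WT B-2 1. Among the other 16 libraries it stood at 484 to 834 CPM in the 5 of B-2 cells and at 4.61 to 71.2 CPM in the 11 of B-1 cells. Cd5 stood at 5.15 and 1.64 CPM in the libraries labelled WT B-1a 1 and 2, at 18.7 CPM in that labelled WT B-1b 1, and at 15.9 to 22.7 CPM in the other 6 libraries of B-1a cells. Libraries were kept under their labels, and values without these 5 are given for the genes whose genotype difference turned direction in B-1 or B-2 cells and for Tet3. Transcripts of macrophage genes were counted as well: Lyz2 reached 3829.8 to 27216 CPM with overlapping ranges in all 6 groups. Another macrophage gene, Adgre1, stood at 40.9 to 395 CPM, and the B cell gene Pax5 at 44.6 to 112 CPM. The paper reports a high purity of the sorted B-1a and B-1b cells, and the source of the macrophage transcripts was not tested. Sums over lists of genes, here and below, are CPM of total counts, without scaling by the trimmed mean of M values. The list of B cell genes summed to 13592 to 22191 CPM and that of macrophage genes to 5393 to 27288 CPM. The 356 vomeronasal receptor genes, which belong to sensory neurons of the nose, summed to 3.77 to 11.2 CPM in the libraries labelled WT 1 and WT 2 and to 44.4 to 871 CPM in the other 16. Their level per kilobase (kb) of exon, in CPM scaled as for single genes, serves below as a background level.

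Tet2 itself was counted in every library of both genotypes. In B-1a cells it stood at 8.46, 11.8, 27.2 and 19.8 CPM in WT libraries 1 to 4 and at 22.0, 20.9, 18.0 and 29.2 CPM in TET2-KO libraries 1 to 4. In B-1b cells the WT values were 10.9, 10.2, 17.4 and 20.4 CPM and the TET2-KO values 16.4, 19.5 and 17.2 CPM. In B-2 cells the values were 14.2 and 15.2 CPM in WT libraries 1 and 4 and 14.5, 21.5, 12.6 and 30.3 CPM in the TET2-KO libraries. The genotypes overlapped in every subset, and the lowest values of B-1a and B-1b cells were those of the WT libraries numbered 1 and 2. On the log2 scale Tet2 was 0.45 ± 0.35 higher in TET2-KO than in WT B-1a cells (log2 fold change ± SE, edgeR, adjusted p = 0.689), 0.29 ± 0.29 higher in B-1b cells (adjusted p = 0.853) and 0.45 ± 0.36 higher in B-2 cells (adjusted p = 0.576), and none of these passed the threshold of 0.05. With those labelled WT 1 and WT 2 left out, the log2 difference was −0.054 ± 0.25 in B-1a and −0.088 ± 0.24 in B-1b cells, in the opposite direction. In B-2 cells, where this leaves 1 WT library that is assumed to vary like the others, it was 0.39 ± 0.45. Because the deleted exons are 3.51% of the counted bases, these counts do not check the genotype labels.

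The paralogs of Tet2 were expressed at very different levels. Tet3 was counted at 14.1 to 36.5 CPM, and per kb of exon it exceeded Tet2 in 16 of 21 libraries, with a median ratio of 1.21 and a range from 0.700 to 1.68. The mean ratio was 1.29 ± 0.356 (SD, n = 4) in WT and 1.13 ± 0.231 (SD, n = 4) in TET2-KO B-1a cells, 1.19 ± 0.391 (SD, n = 4) and 1.07 ± 0.111 (SD, n = 3) in B-1b cells, and 1.33 ± 0.187 (SD, n = 2) and 1.22 ± 0.225 (SD, n = 4) in B-2 cells. These ratios overlapped between the genotypes in each subset. Tet3 stood at 14.1, 16.7, 22.8 and 23.7 CPM in WT B-1a libraries 1 to 4 and at 17.1, 26.0, 21.8 and 36.5 CPM in the TET2-KO B-1a libraries, so that these groups overlapped too. The log2 difference of TET2-KO from WT was 0.43 ± 0.27 in B-1a cells (adjusted p = 0.649), 0.27 ± 0.20 in B-1b cells (adjusted p = 0.839) and 0.23 ± 0.26 in B-2 cells (adjusted p = 0.656). With those labelled WT 1 and WT 2 left out, the Tet3 difference was 0.14 ± 0.30 in B-1a and 0.22 ± 0.26 in B-1b cells. In B-2 cells, where this leaves 1 WT library that is assumed to vary like the others, it was 0.046 ± 0.32.

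Tet1 was the lowest of the 10 genes. Its counts were 11, 16, 4 and 7 in WT B-1a libraries 1 to 4 and 13, 20, 11 and 8 in TET2-KO B-1a libraries 1 to 4. They were 0, 1, 12 and 25 in the WT B-1b libraries and 8, 11 and 23 in the TET2-KO B-1b libraries. In B-2 cells they were 3 and 20 in WT libraries 1 and 4 and 12, 46, 17 and 92 in the TET2-KO libraries. The highest levels, 3.25 and 6.23 CPM, belonged to TET2-KO B-2 libraries 2 and 4, which also had the highest vomeronasal receptor levels of all 21 libraries. Per kb of exon Tet1 lay below the vomeronasal receptor genes in 14 of 21 libraries, with a median ratio of 0.750, whereas each of the other 9 genes lay above them in every library, by 2.52 times or more. In the libraries labelled WT B-1a 1, WT B-1a 2 and WT B-2 1, where the vomeronasal receptor level was low, Tet1 was at 4.84, 10.5 and 4.71 times that level, on 11, 16 and 3 counts. The log2 difference of TET2-KO from WT in B-1b cells was 0.70 ± 1.30 (adjusted p = 0.921), and −0.25 ± 1.03 with those labelled WT 1 and WT 2 left out. The log2 levels of Tet1 and of the vomeronasal receptor sum had a Pearson r of 0.75 over 21 libraries and 0.84 over the 16 without WT 1 and WT 2. This r and those that follow describe libraries that share depth and preparation, and they carry no test.

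**Figure D1:**
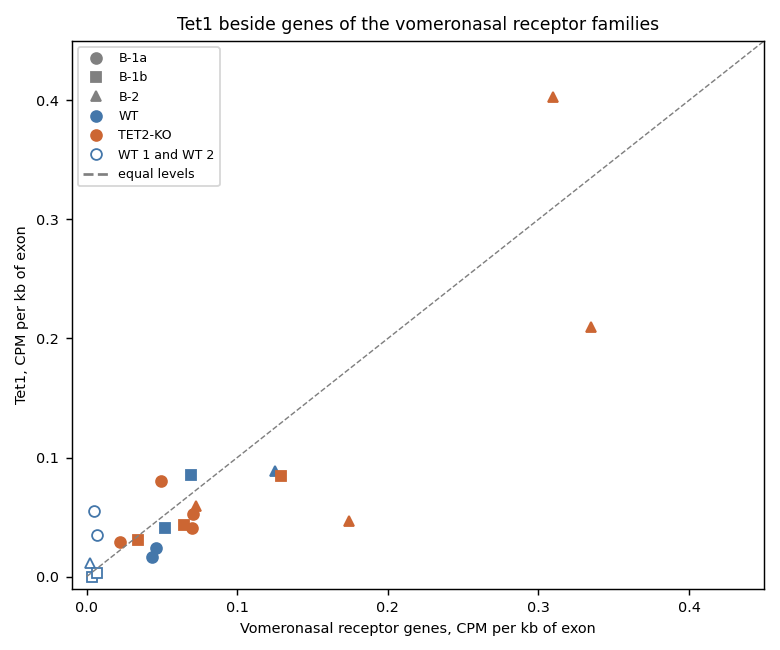
Level of Tet1 against the level of 356 vomeronasal receptor genes as a whole, both in CPM per kb of exon, with 1 point per library and a dashed line where both are equal. Of the 21 libraries 14 lie below the line, and the highest Tet1 levels are those of TET2-KO B-2 libraries 2 and 4.

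Among the writers Dnmt1 was the most abundant per kb of exon. Its group means lay between 2.94 and 3.44 CPM per kb and took rank 3 of the 10 genes in each group, after Idh1 at 27.0 to 33.6 and Idh2 at 15.0 to 23.7 CPM per kb. Dnmt3a, at 1.14 to 1.75 CPM per kb, was below Dnmt1 in 20 of 21 libraries, with a median Dnmt1 to Dnmt3a ratio of 2.30. Dnmt3b, at 0.776 to 0.998 CPM per kb, was below Dnmt3a in 19 of 21 libraries. Tdg, at 1.91 to 2.85 CPM per kb, and Uhrf1, at 1.49 to 2.53 CPM per kb, took ranks 4 and 5 in every group, and their ranges overlapped in all groups except TET2-KO B-2. Tet1, at 0.0324 to 0.180 CPM per kb, ranked last in every group, with a range apart from that of the gene above it. The places between changed hands from group to group among Dnmt3a, Tet3, Tet2 and Dnmt3b. This order depends on the exon bases divided by, which were 7377 for Dnmt1 and 16642 for Dnmt3a. In CPM without that division, the TET2-KO B-1a mean was 29.1 for Dnmt3a and 21.7 for Dnmt1. In every other group the mean CPM of Dnmt1 was the higher.

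**Figure D2:**
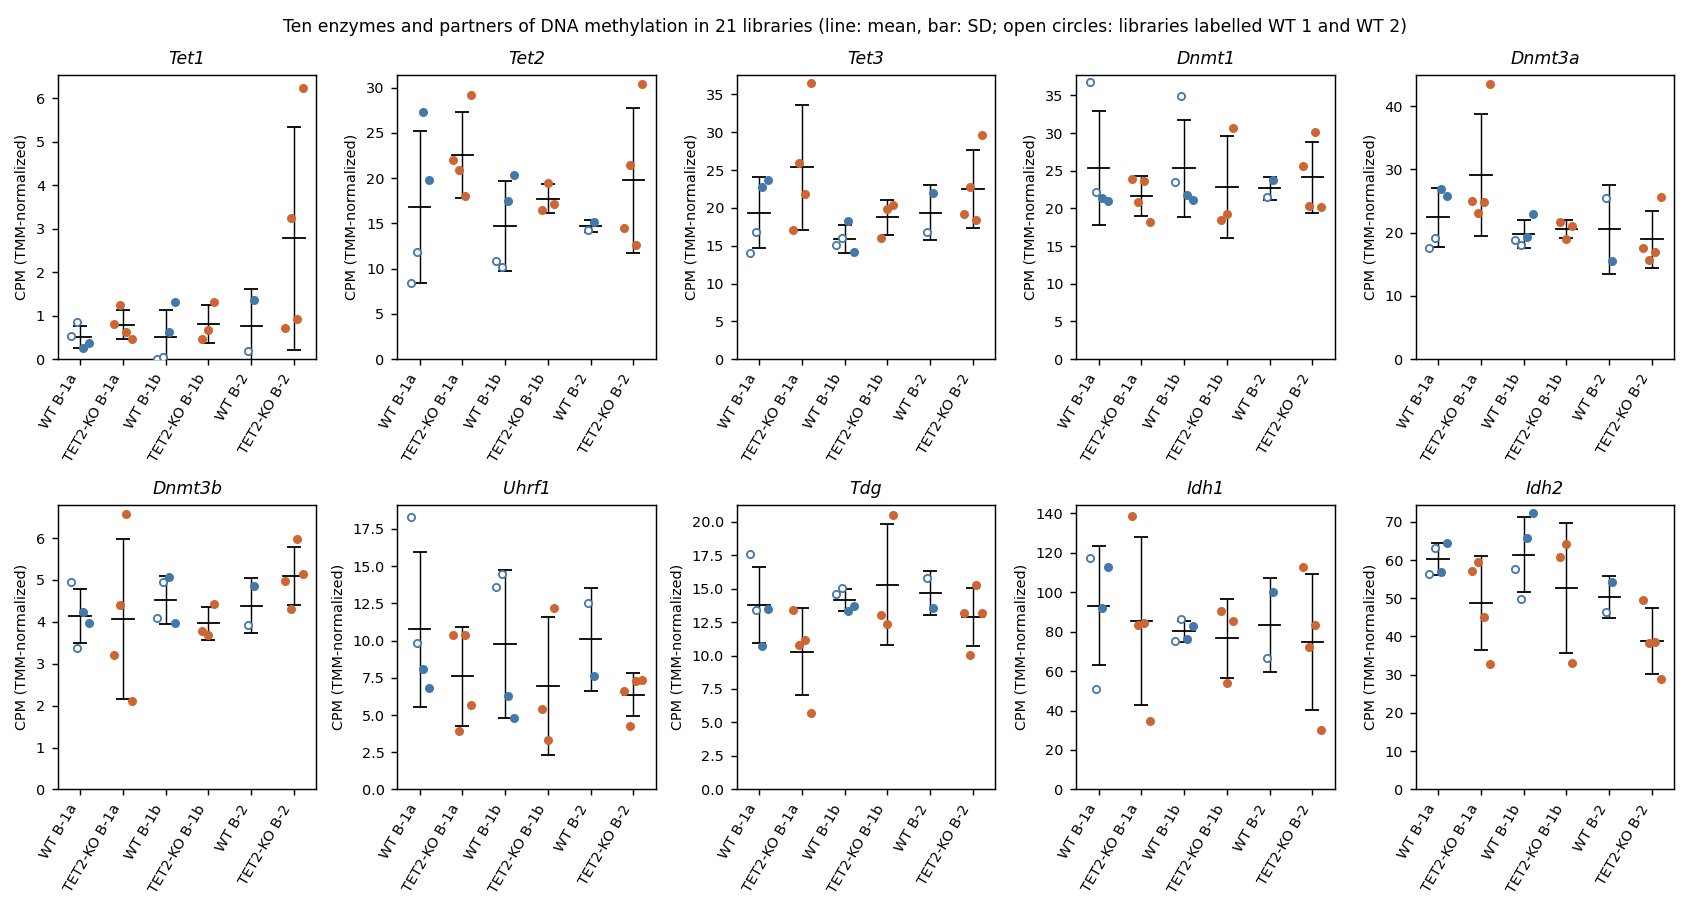
Level of each of the 10 genes in CPM (linear axis from 0) in 21 libraries, with 1 circle per library, a line at the group mean and a bar of 1 SD, cut at 0 where it would pass below. Open circles are the libraries labelled WT 1 and WT 2, which hold the lowest Tet2 values of the WT B-1a and WT B-1b groups and the highest Uhrf1 value of each WT group.

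No gene of the 10 passed the test between TET2-KO and WT cells in any subset. In B-1a cells edgeR called 0 of 10 at an adjusted p under 0.05, where it called 0.0503% of the 13923 genes tested, and 0 of 10 reached p under 0.05 before adjustment, which 7.85% of all genes did. For B-1b cells edgeR called 0 of 10, as it called 0% of 14368 genes, and 0 of 10 reached p under 0.05 before adjustment, against 5.48% of all genes. In B-2 cells, with 2 WT libraries, edgeR called 0 of 10 and 0% of 19786 genes, and 0 of 10 reached p under 0.05 before adjustment, against 8.86% of all genes. Without WT B-2 library 4, which leaves 1 WT library that is assumed to vary like the others, 576 of 24732 genes were called in B-2 cells, and 0 of the 10. DESeq2 called 0 of 10 in each subset, beside 0.99%, 0.287% and 0.701% of the genes it tested. The libraries of both genotypes overlapped for all 10 genes in B-1a and B-1b cells and for 9 of 10 in B-2 cells, where 5.55%, 7.68% and 20% of all genes did not overlap. Of the 10 genes 5 had higher and 5 lower estimates in TET2-KO cells in each subset, where 52.4%, 49.5% and 58.3% of all genes had higher ones. Their median log2 difference was −0.047 in B-1a, 0.023 in B-1b and 0.0085 in B-2 cells, beside 0.022, −0.0055 and 0.18 over all genes tested.

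The 95% intervals give the sizes of difference that these libraries leave possible. In B-1a cells the interval of TET2-KO against WT reached from 0.637 to 1.21 times the WT level for Dnmt1, from 0.900 to 1.97 times for Dnmt3a, from 0.566 to 1.79 times for Dnmt3b and from 0.390 to 1.35 times for Uhrf1. It reached from 0.502 to 1.16 times for Tdg, from 0.515 to 1.69 times for Idh1 and from 0.625 to 1.09 times for Idh2. In B-1b cells it reached from 0.799 to 1.41 times for Dnmt3a and from 0.720 to 1.32 times for Idh1, and was wider for Dnmt3b, from 0.536 to 1.499 times, and for Uhrf1, from 0.321 to 1.71 times. In B-2 cells it reached from 0.754 to 1.54 times for Dnmt1, from 0.596 to 1.48 times for Dnmt3a, from 0.445 to 1.85 times for Idh1 and from 0.365 to 1.12 times for Uhrf1. Tet1 had the widest interval in each subset, which in B-2 cells reached from 0.508 to 25.8 times the WT level.

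**Figure D3:**
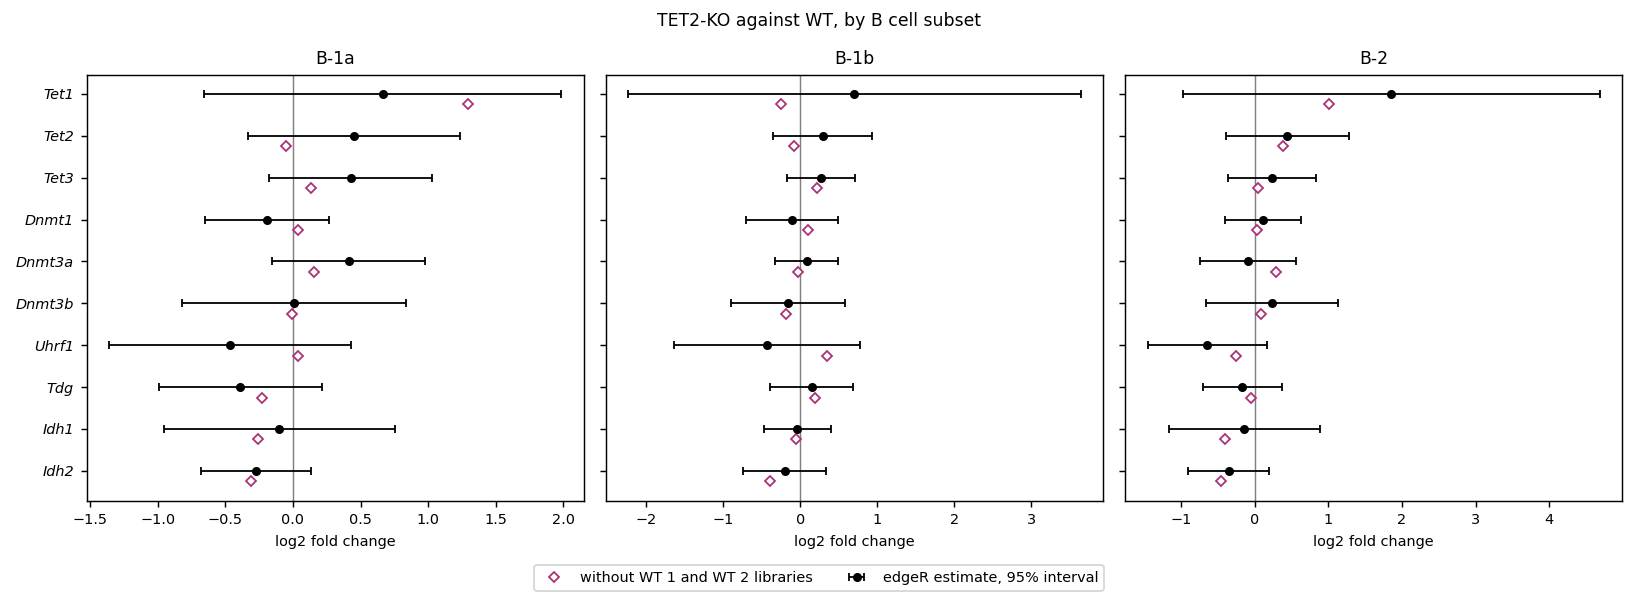
Log2 fold change of the 10 genes in TET2-KO against WT cells (circles, edgeR estimate with its 95% interval), 1 panel per subset, with the estimate without the libraries labelled WT 1 and WT 2 as open diamonds; the horizontal scale differs between panels. Each interval crosses 0, and the diamonds of Tet2, Dnmt1 and Uhrf1 lie on the other side of 0 from the circles in B-1a and B-1b cells. The diamonds of B-2 cells rest on 1 WT library.

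Dnmt1 and Uhrf1, the pair that maintains methylation through replication, turned direction in both B-1 subsets, but not in B-2 cells, once the libraries whose markers went against their labels were left out. Dnmt1 stood at 36.7, 22.2, 21.4 and 21.05 CPM in WT B-1a libraries 1 to 4 and at 23.9, 20.9, 23.7 and 18.2 CPM in the TET2-KO libraries. In B-1b cells it stood at 23.6, 34.9, 21.8 and 21.1 CPM in WT and at 18.5, 19.3 and 30.7 CPM in TET2-KO libraries. The highest WT values of these subsets were those of the libraries labelled WT B-1a 1 and WT B-1b 2, the B-1 libraries in which Fcer2a was at the level of B-2 cells. In B-2 cells Dnmt1 stood at 21.5 and 23.8 CPM in WT and at 25.6, 20.4, 30.2 and 20.3 CPM in TET2-KO libraries. The genotypes overlapped in every subset. The log2 difference of TET2-KO from WT was −0.19 ± 0.21 in B-1a cells (adjusted p = 0.767) but 0.036 ± 0.19 once those labelled WT 1 and WT 2 were left out. In B-1b cells it was −0.11 ± 0.26 (adjusted p = 0.942) and 0.10 ± 0.30.

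Uhrf1 had the widest spread of the 10 genes after Tet1, from 3.32 to 18.3 CPM. It stood at 18.3, 9.83, 8.08 and 6.79 CPM in WT B-1a libraries 1 to 4 and at 10.4, 3.96, 10.4 and 5.64 CPM in the TET2-KO libraries. In B-1b cells it stood at 13.6, 14.5, 6.26 and 4.77 CPM in WT and at 5.38, 3.32 and 12.2 CPM in TET2-KO libraries. In B-2 cells it stood at 12.6 and 7.65 CPM in WT libraries 1 and 4 and at 6.58, 4.23, 7.26 and 7.38 CPM in the TET2-KO libraries. The B-2 groups did not overlap, as was so for 20% of all genes there, and the groups of both B-1 subsets overlapped. The log2 difference in B-2 cells was −0.64 ± 0.35 (adjusted p = 0.531), and −0.25 ± 0.48 without WT B-2 library 1, which leaves 1 WT library that is assumed to vary like the others. In B-1a cells it was −0.46 ± 0.40 (adjusted p = 0.713) with all libraries and 0.037 ± 0.44 without those labelled WT 1 and WT 2. In B-1b cells it was −0.44 ± 0.53 (adjusted p = 0.881) and 0.35 ± 0.59.

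Dnmt1 and Uhrf1 moved together across libraries, with an r of their log2 levels of 0.71 over 21 libraries and 0.64 over 16. Both moved with the summed level of 14 proliferation genes, Dnmt1 at r = 0.64 and Uhrf1 at r = 0.64 over 21 libraries, and at 0.54 and 0.62 over 16. Neither trait was particular to this pair. Tdg went with Dnmt1 at r = 0.64 over 21 and 0.67 over 16 libraries. With the proliferation sum Tdg had an r of 0.60 and 0.55, Idh1 of 0.49 and 0.47, Tet3 of −0.60 and −0.56 and Tet2 of −0.53 and −0.41. That sum ranged from 331 to 490.3 CPM in WT B-1a, from 248 to 405 CPM in TET2-KO B-1a, from 343 to 386 CPM in WT B-1b and from 270.0 to 392 CPM in TET2-KO B-1b libraries. In B-2 cells it ranged from 354 to 362 CPM in WT and from 348 to 404 CPM in TET2-KO libraries. Its part in the levels of these genes was not tested, and in bulk samples fewer cells of a kind and less RNA per cell cannot be told apart. Among 9461 genes at a mean of 5 CPM or more, immunoglobulin genes left out, those most like Dnmt1 over the 21 libraries were Add3 (r = 0.87, and 0.82 over 16 libraries), Sipa1 (r = 0.84, and 0.73 over 16 libraries) and Prkcd (r = 0.83, and 0.76 over 16 libraries). Those most like Uhrf1 were Smarcc1 (r = 0.84, and 0.70 over 16 libraries), Cyfip2 (r = 0.79, and 0.64 over 16 libraries) and Cdc25a (r = 0.79, and 0.72 over 16 libraries), the last of which encodes a phosphatase of the cell cycle. Those most like Tet2 were Fyco1 (r = 0.91, and 0.85 over 16 libraries), Neat1 (r = 0.89, and 0.78 over 16 libraries) and Mirt1 (r = 0.88, and 0.71 over 16 libraries), with 8862, 21163 and 8627 exon bases. Tet2 went with Tet3 at r = 0.74 and against Dnmt1 at r = −0.70 over 21 libraries, and at 0.61 and −0.61 over 16.

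The promoters of the 10 genes were searched for the E2F forms TTCGCGC and TTGGCGC on both strands, since E2F factors are known to act on genes of replication. In the window from 250 bases before to 50 bases after the canonical start in GRCm39, 0 of 10 genes held either form, and 986 of 21770 promoters (4.5%) did. This says only that these letters are not in these windows.

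Dnmt3a, which methylates unmodified DNA, stood at 17.6, 19.2, 27.0 and 25.9 CPM in WT B-1a libraries 1 to 4 and at 25.1, 23.1, 24.8 and 43.5 CPM in the TET2-KO B-1a libraries. In B-1b cells it stood at 18.8, 18.0, 19.4 and 23.0 CPM in WT and at 21.6, 19.0 and 21.1 CPM in TET2-KO libraries. In B-2 cells it stood at 25.5 and 15.6 CPM in WT and at 17.6, 15.7, 16.9 and 25.6 CPM in TET2-KO libraries. The genotypes overlapped in each subset. TET2-KO B-1a library 4 stood far above the rest of its group in Dnmt3a, and it also had the highest Tet3 and the lowest Dnmt1, Dnmt3b and Tdg of all 21 libraries. The log2 difference of TET2-KO from WT was 0.41 ± 0.25 in B-1a cells (adjusted p = 0.648), 0.084 ± 0.18 in B-1b cells (adjusted p = 0.933) and −0.092 ± 0.29 in B-2 cells (adjusted p = 0.874). With those labelled WT 1 and WT 2 left out, it was 0.15 ± 0.29 in B-1a cells and turned to −0.035 ± 0.23 in B-1b cells. In B-2 cells, where this leaves 1 WT library that is assumed to vary like the others, it turned to 0.30 ± 0.35. The B-1a effect minus the B-1b effect was 0.32 ± 0.32 for Dnmt3a, and the 95% interval of this difference of effects included 0 for all 10 genes. For that difference edgeR called 0 of 10 and 0% of 15972 genes, with 0 of 10 at an unadjusted p under 0.05, against 1.57% of all genes, and 0 of 10 by DESeq2, against 0.00241%.

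Dnmt3b, the other enzyme of this kind, was the lowest writer and stood at 4.96, 3.38, 4.24 and 3.98 CPM in WT B-1a and at 3.21, 4.39, 6.57 and 2.11 CPM in TET2-KO B-1a libraries. It stood at 4.08, 4.96, 5.06 and 3.98 CPM in WT B-1b and at 3.78, 3.68 and 4.42 CPM in TET2-KO B-1b libraries. In B-2 cells it stood at 3.93 and 4.85 CPM in WT and at 4.97, 4.30, 5.97 and 5.15 CPM in TET2-KO libraries. All pairs of genotypes overlapped, and the log2 differences were 0.0090 ± 0.37 in B-1a, −0.16 ± 0.33 in B-1b and 0.23 ± 0.39 in B-2 cells, none of which passed the test. The B-1a difference turned to −0.0054 ± 0.48 with those labelled WT 1 and WT 2 left out.

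Between subsets, the TET2-KO libraries carried Fcer2a and Cd5 at levels that followed their labels. In B-1a against B-2 cells edgeR called 0 of the 10 genes, where it called 5.82% of 18555 genes, while 2 of 10 had an unadjusted p under 0.05, which 24.7% of all genes had. These were Dnmt3a, with a log2 difference of 0.58 ± 0.24 (adjusted p = 0.149), and Tet1, with −1.86 ± 0.81 (adjusted p = 0.173). Dnmt3a was at 23.1 to 43.5 CPM in the B-1a and 15.7 to 25.6 CPM in the B-2 libraries, and the groups overlapped through TET2-KO B-2 library 4. Each B-1a library was above the B-2 library of the same number, and with the replicate number as a block Dnmt3a was called (0.56 ± 0.13, adjusted p = 0.0212). That fit called 1 of the 10 genes and 1638 of all 18555. Deviations from the group means correlated at 0.0978 to 0.548 over the 4 same-numbered pairs of these groups. The median was 0.302, and −0.073 for pairs of other numbers. Deviations within a group sum to 0, so positive same-numbered pairs push the others below 0, and the second value is no separate control. No gene of the 10 had groups apart, as 19% of all genes had. DESeq2 called 1 of the 10, where it called 13.2% of its genes, and that was Tet1 (−2.03, adjusted p = 0.0465). Tet1 was highest in the B-2 libraries with the most vomeronasal receptor counts, and the part of these counts in the result was not tested. With the vomeronasal receptor level as a covariate, an alternative chosen after seeing the data, the Tet1 estimate was 0.38 ± 1.01, in the opposite direction.

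In B-1b against B-2 cells edgeR called 0 of 10 genes, against 2.15% of all genes, with 0 of 10 at an unadjusted p under 0.05, against 19.6%, and 0 of 10 by DESeq2, against 10.6%. The estimates other than that of Tet1 lay between −0.41 for Dnmt3b and 0.40 for Idh2, and the groups overlapped for each of the 10 genes, while 19.3% of all genes had groups apart. In B-1a against B-1b cells edgeR called 0 of 10 genes, against 0.205% of all genes, with 0 of 10 at an unadjusted p under 0.05, against 5.78%, and 0 of 10 by DESeq2, against 0.745%. Dnmt3a was the 1 gene of the 10 whose groups did not overlap there, with a lowest B-1a value of 23.1 CPM and a highest B-1b value of 21.6 CPM, as was true of 6.05% of all genes. Its log2 difference was 0.51 ± 0.26 (adjusted p = 0.858), and that of Tdg, the glycosylase, was −0.56 ± 0.30 (adjusted p = 0.858).

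**Figure D4:**
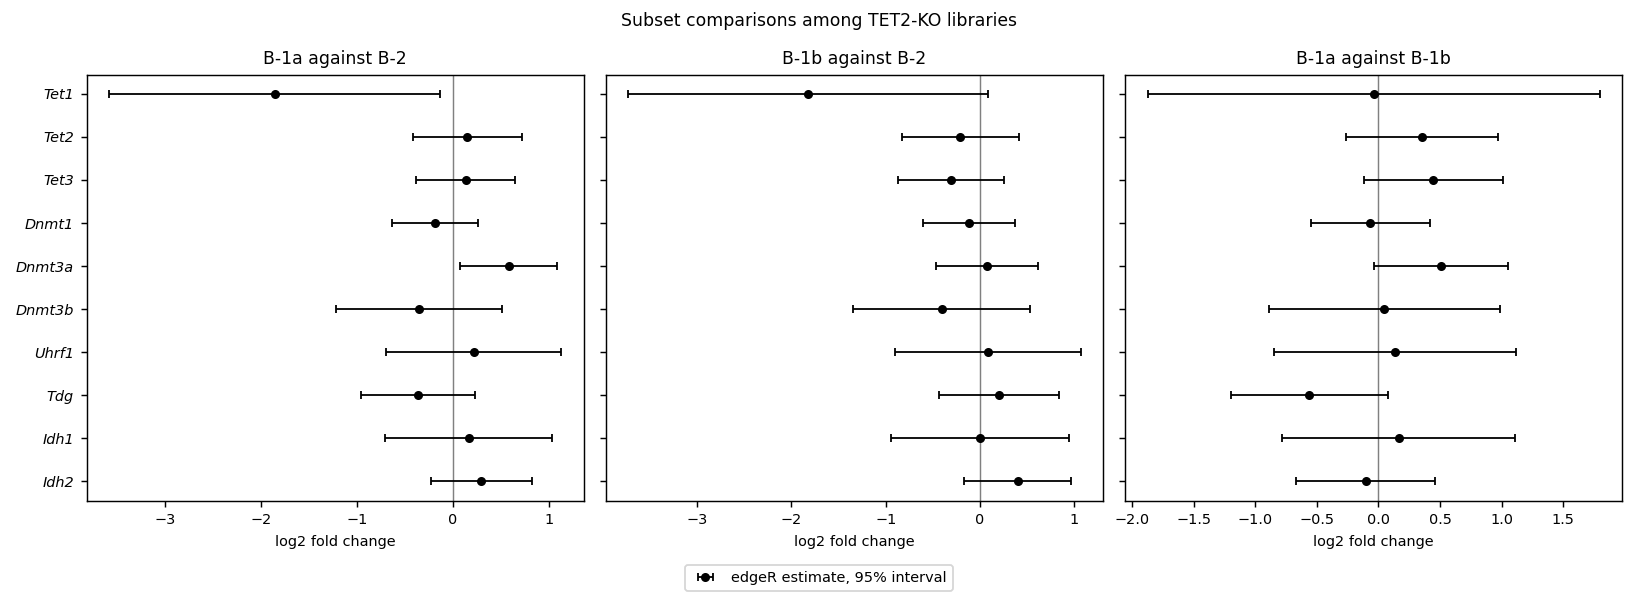
Log2 fold change of the 10 genes between subsets of TET2-KO mice (circles, edgeR estimate with its 95% interval), positive where the first-named subset was higher; the horizontal scale differs between panels. The intervals of Tet1 and Dnmt3a in B-1a against B-2 cells leave out 0, all others cross it, and neither gene passed the adjusted threshold.

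In WT mice B-1a and B-1b cells were also compared. Tet1 did not pass the filter on low counts there, and edgeR called 0 of the remaining 9 genes, as it called 0% of 13800 genes, with 0 of 9 at an unadjusted p under 0.05, against 1.86% of all genes, and 0 of 10 by DESeq2, against 0.00273%. The groups overlapped for all 9, and were apart for 1.22% of all genes. Tet3 had the largest estimate at 0.28 ± 0.20. With those labelled WT 1 and WT 2 left out, which leaves 2 libraries a group, 500 of 15097 genes passed the test, and 0 of the 10. An unadjusted p under 0.05 was found for 2 of the 10 genes and for 2406 of all 15097. The 2 were Tet3, with an estimate of 0.52 ± 0.18 (adjusted p = 0.147), and Idh1, with 0.36 ± 0.14 (adjusted p = 0.202).

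Tet1, Tet3, Dnmt3a and Tet2 have long exons in sum, with 15457, 16695, 16642 and 16870 bases. Among all genes tested with over 10 kb of exon, the median log2 difference of TET2-KO from WT was 0.17 in B-1a, 0.20 in B-1b and 0.36 in B-2 cells, against −0.015, −0.031 and 0.024 for genes of 3 to 6 kb. In B-2 cells length and difference did not run in one order, since genes under 3 kb had a median of 0.38. In B-1b cells the median rose with length, at −0.078 under 3 kb and 0.068 at 6 to 10 kb. For B-1a cells it was 0.013 under 3 kb and 0.047 at 6 to 10 kb. In TET2-KO mice genes over 10 kb had a median of −0.25 for B-1a and −0.27 for B-1b against B-2 cells. Between B-1a and B-1b cells it was 0.024 in TET2-KO and 0.048 in WT mice. The part of exon length in the estimates of these 4 genes was not tested.

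Tdg, Idh1 and Idh2, the glycosylase and the dehydrogenases, had genotype differences that did not pass the test. That of Tdg was −0.39 ± 0.27 in B-1a (adjusted p = 0.668), 0.15 ± 0.24 in B-1b (adjusted p = 0.907) and −0.17 ± 0.24 in B-2 cells (adjusted p = 0.723). Tdg ranged from 5.70 CPM in TET2-KO B-1a library 4 to 20.5 CPM in TET2-KO B-1b library 3. Of its exon bases 6.83% are shared with Glt8d2, and fragments overlapping both genes were counted for neither. Idh1 stood at 117, 51.0, 91.8 and 113 CPM in WT B-1a and at 139, 83.3, 84.4 and 34.5 CPM in TET2-KO B-1a libraries. Across all libraries Idh1 ranged from 30.3 to 139 CPM and Idh2 from 28.9 to 72.3 CPM, and both were lowest in TET2-KO B-2 library 4. Idh1 moved with the summed level of 12 macrophage genes (r = 0.77 over 21 and 0.75 over 16 libraries), whose sums ranged from 5393 to 27288 CPM and overlapped in all groups. The part of macrophage RNA in Idh1 was not tested. Idh2 stood at 56.4, 63.2, 56.8 and 64.4 CPM in WT B-1a and at 57.2, 59.5, 45.2 and 32.9 CPM in TET2-KO B-1a libraries, which overlapped. Its log2 difference of TET2-KO from WT was −0.27 ± 0.18 in B-1a (adjusted p = 0.659), −0.20 ± 0.24 in B-1b (adjusted p = 0.877) and −0.35 ± 0.24 in B-2 cells (adjusted p = 0.540).

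A wider list of 57 genes linked to the same chemistry, in 6 groups by role, was read beside the 10. Between TET2-KO and WT cells edgeR tested 54, 54 and 55 of them in the order B-1a, B-1b, B-2, and called 0 in each subset. In that order 2, 3 and 3 had an unadjusted p under 0.05, against 7.85%, 5.48% and 8.86% of all genes. DESeq2 called 0, 0 and 0. In TET2-KO mice edgeR called 3 of 55 higher and 1 lower in B-1a than in B-2 cells, where 3.26% of all genes were called higher and 2.57% lower. In B-1b against B-2 cells it called 3 of 55 higher and 0 lower, where 1.52% of all genes were called higher and 0.631% lower. By edgeR the groups of 2-oxoglutarate and related enzymes, partners of DNA methyltransferases and methyl donor synthesis held 0 called genes in both comparisons. DESeq2 called 7 of the 57 linked genes in B-1a and 5 in B-1b against B-2 cells, where it called 13.2% and 10.6% of all genes. Beside the edgeR calls these were Mbd4, Cdca7, a partner of the methyltransferases, and Fh1, the fumarate hydratase, in B-1a cells, and Mbd4 and Gadd45a in B-1b cells, named here after their values were seen.

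Apobec1, a cytidine deaminase that edits RNA, stood at 197, 157, 271 and 181 CPM in TET2-KO B-1a, at 188, 192 and 260.0 CPM in TET2-KO B-1b and at 87.4, 65.3, 114 and 50.3 CPM in TET2-KO B-2 libraries. The B-2 libraries lay below those of both B-1 subsets, with a log2 difference of 1.32 ± 0.24, adjusted p = 0.00352, for B-1a and 1.39 ± 0.26, adjusted p = 0.00812, for B-1b against B-2 cells. Thyn1, whose product was described as binding oxidized methylcytosine, stood at 49.7, 40.3, 36.7 and 67.2 CPM in TET2-KO B-1a, at 40.8, 34.1 and 27.5 CPM in TET2-KO B-1b and at 19.4, 14.5, 19.9 and 11.4 CPM in TET2-KO B-2 libraries, with B-2 again apart from both. It was higher in B-1a (1.54 ± 0.24, adjusted p = 0.00082) and B-1b cells (1.03 ± 0.25, adjusted p = 0.0442). Zbtb38, a zinc finger protein that binds methylated DNA, was higher in B-1a (1.25 ± 0.19, adjusted p = 0.000856) and B-1b cells (0.93 ± 0.20, adjusted p = 0.0250), at 38.1 to 58.5 and 36.7 to 37.7 CPM against 15.98 to 24.8 CPM in B-2 libraries. Gadd45a, a stress-induced gene linked to demethylation, was lower in B-1a than in B-2 cells (−1.48 ± 0.41, adjusted p = 0.0453). It stood at 3.72, 4.204, 3.46 and 5.41 CPM in B-1a libraries, all below those of B-2 cells, where the highest was 13.1 CPM. Of all genes, 19% had groups apart in B-1a and 19.3% in B-1b against B-2 cells. These 4 genes were named because they were called. When 1 library at a time was left out, the Gadd45a call was lost in 9 of 11 fits, and in B-1b cells that of Thyn1 in 8 of 11 and that of Zbtb38 in 6 of 11, while the other 4 calls were kept. With all 21 libraries in one fit 4 of the 7 calls were lost, and with the vomeronasal receptor level as a covariate 7 of 7 were. Under that covariate the estimates in B-1a against B-2 cells were 1.18 ± 0.33 for Apobec1, 0.90 ± 0.27 for Thyn1, 1.05 ± 0.26 for Zbtb38 and −2.03 ± 0.64 for Gadd45a, and those in B-1b cells were 1.29 ± 0.30, 0.53 ± 0.24 and 0.78 ± 0.24 for the first 3.

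**Figure D5:**
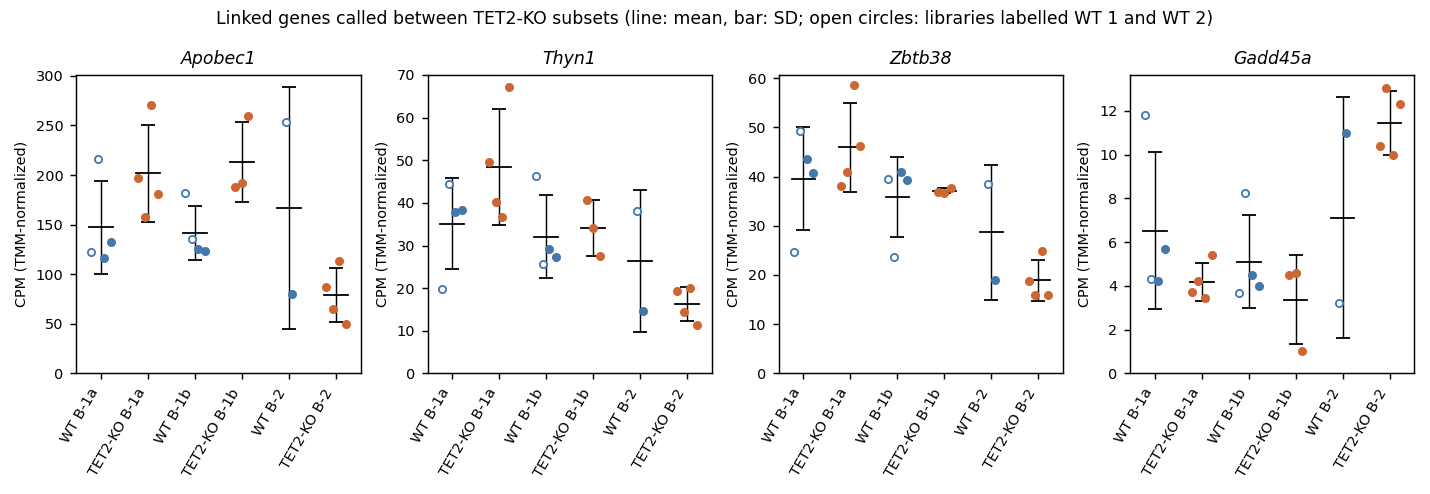
Levels of Apobec1, Thyn1, Zbtb38 and Gadd45a in CPM by group, with 1 circle per library, open for the libraries labelled WT 1 and WT 2. In TET2-KO mice the B-2 libraries lie below both B-1 subsets for the first 3 genes and above them for Gadd45a. Groups are apart, in either direction, for 19% of all genes in B-1a and 19.3% in B-1b against B-2 cells.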

How the data were processed

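RNA of sorted cells was sequenced as 21 libraries. The labels describe poly(A) selection and random priming, the study's methods full-length cDNA amplification from total RNA, and which was used is not settled in the sources used here. After sequencing, the authors deposited raw counts of fragments per gene, 1 table per library. Per the file headers and labels, reads were trimmed with fastp, aligned to GRCm39 with STAR, whose version is not given in the sources used here, and counted with featureCounts v1.6.1 on GENCODE vM32 without strand. Fragments that matched several places or genes were not counted, and the reads carried no molecular identifiers, so counts include PCR copies. Symbols came from GENCODE vM39.

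Here groups were taken from the labels. The counts were tested with edgeR 4.0.16 in R 4.3.3 (trimmed mean of M values, filterByExpr, quasi-likelihood F test), with the Benjamini-Hochberg adjustment over all genes tested and a threshold of 0.05, and the rows of the 10 genes were read from these fits. Genotypes were compared within subsets, and TET2-KO subsets in one fit of 11 libraries. DESeq2 1.42.0, other scalings and fits, a replicate block and leaving out libraries were alternatives. The scripts were tested on simulated data. Same-numbered TET2-KO B-1a and B-1b libraries deviated together (correlations 0.191 to 0.366 over 3 pairs), and with the number as a block 103 genes in place of 38 were called between them, and 0 of the 10. The labels do not say that replicates are separate animals, so p-values measure the spread between these libraries. Named genes were all 10 genes, at most 4 rising and 4 falling called genes of the linked lists per comparison, and the 3 genes most like Tet2, Dnmt1 and Uhrf1. Genes and lists were chosen with earlier results of these data known, and some listed genes are not reported here.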

Additional observations from a re-analysis of the deposited data

Results flagged for a closer look

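Of 40 groups of 4 libraries tested for a library far from the others (Dixon's test at the 95% level), 2 held one, and chance alone marks about 1 in 20. Dnmt1 stood at 36.7 CPM in the library labelled WT B-1a 1, against at most 22.2 CPM in the other 3 WT B-1a libraries, and this library also held 815 CPM of Fcer2a. Dnmt3a stood at 43.5 CPM in TET2-KO B-1a library 4, against at most 25.1 CPM in the other 3 of its group. The cause was not tested for either.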

How the results depend on the processing

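The count of the 10 genes called stayed at 0 in the 8 comparisons under every alternative except 2, both in TET2-KO B-1a against B-2 cells. DESeq2 called 1 there (Tet1, adjusted p = 0.0465), and the fit with the replicate number as a block called 1 (Dnmt3a, 0.56, adjusted p = 0.0212). Over all genes DESeq2 called 13.2% of those it tested there, and the block fit 1638 of 18555. In the fits that left out 1 library each, 0 of the 10 were called. Directions were less stable: of 79 effects of the 10 genes, 30 had one direction in every fit. The values that follow are log2 differences in the opposite direction, and the cause was not tested.

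Without the libraries labelled WT 1 and WT 2, 14 of 49 effects turned, in TET2-KO against WT B-1a, Tet2 (−0.054), Dnmt1 (0.036), Dnmt3b (−0.0054) and Uhrf1 (0.037), in TET2-KO against WT B-1b, Tet1 (−0.25), Tet2 (−0.088), Dnmt1 (0.10), Dnmt3a (−0.035) and Uhrf1 (0.35), in TET2-KO against WT B-2, Dnmt3a (0.30), in WT B-1a against B-1b, Dnmt1 (−0.014), in the B-1a minus B-1b effect, Tet1 (1.54), Tet3 (−0.084) and Idh2 (0.077). With the vomeronasal receptor level as a covariate, chosen after seeing the data, 14 of 79 turned, in TET2-KO against WT B-1a, Dnmt3b (−0.22), in TET2-KO against WT B-1b, Tet1 (−0.34), Tet2 (−0.052), Dnmt3a (−0.031) and Uhrf1 (0.12), in TET2-KO against WT B-2, Tet1 (−0.16), Tet2 (−0.0021), Tet3 (−0.15), Dnmt3a (0.19) and Tdg (0.041), in TET2-KO B-1a against B-2, Tet1 (0.38), in TET2-KO B-1b against B-2, Tet2 (0.14), in TET2-KO B-1a against B-1b, Tet1 (0.53), in WT B-1a against B-1b, Dnmt1 (−0.016). With DESeq2 3 of 79 turned, in TET2-KO against WT B-1a, Dnmt3b (−0.011), in TET2-KO B-1b against B-2, Dnmt3a (−0.039), in WT B-1a against B-1b, Dnmt1 (−0.0093). With RLE size factors 2 of 79 turned, in TET2-KO B-1b against B-2, Dnmt3a (−0.042), in WT B-1a against B-1b, Dnmt1 (−0.0048). With scaling without immunoglobulin genes 2 of 79 turned, in TET2-KO against WT B-1a, Dnmt3b (−0.0013), in TET2-KO B-1b against B-2, Idh1 (0.0033). With all 21 libraries in one fit 2 of 79 turned, in TET2-KO against WT B-1a, Dnmt3b (−0.024), in TET2-KO B-1b against B-2, Idh1 (0.035). With no filter on low counts 1 of 79 turned, in TET2-KO against WT B-1a, Dnmt3b (−0.053).

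With the replicate block 9 of 79 turned, in TET2-KO against WT B-1a, Dnmt3b (−0.091), in TET2-KO against WT B-2, Dnmt3a (0.12), in TET2-KO B-1b against B-2, Tet2 (0.061) and Uhrf1 (−0.076), in TET2-KO B-1a against B-1b, Dnmt1 (0.033) and Idh2 (0.056), in WT B-1a against B-1b, Dnmt1 (−0.013), in the B-1a minus B-1b effect, Uhrf1 (0.20) and Idh1 (0.0095). Among groups with 3 or more pairs, each same-numbered pair had a correlation of deviations over 0.1 for TET2-KO B-1a with B-1b cells. For TET2-KO B-1a with B-2 cells each of the 4 pairs was above 0, at 0.0978 to 0.548, with 3 of them over 0.1. Among groups with 2 pairs, each was over 0.1 in WT B-1b with WT B-2 and WT B-2 with TET2-KO B-2 cells. Between TET2-KO B-1a and B-2 cells the block moved the count of all genes called from 1080 to 1638. In B-1b against B-2 cells the block moved that count from 399 to 667, and in TET2-KO against WT B-1a cells from 7 to 48. The block changed no other call among the 10 genes.

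Leaving out 1 library turned 90 of 762 values, and the ranges of the effects concerned were, in TET2-KO against WT B-1a, Dnmt1 (−0.27 to 0.030), Dnmt3b (−0.33 to 0.21) and Idh1 (−0.44 to 0.15), in TET2-KO against WT B-1b, Dnmt1 (−0.40 to 0.076), Idh1 (−0.17 to 0.15), Idh2 (−0.38 to 0.039) and Tdg (−0.14 to 0.27), in TET2-KO against WT B-2, Dnmt3a (−0.39 to 0.30) and Idh1 (−0.41 to 0.23), in TET2-KO B-1a against B-2, Idh1 (−0.22 to 0.43), Tet2 (−0.12 to 0.45), Tet3 (−0.088 to 0.31) and Uhrf1 (−0.032 to 0.45), in TET2-KO B-1b against B-2, Dnmt1 (−0.43 to 0.023), Dnmt3a (−0.084 to 0.26), Idh1 (−0.26 to 0.25), Tdg (−0.11 to 0.35), Tet2 (−0.48 to 0.090) and Uhrf1 (−0.64 to 0.43), in TET2-KO B-1a against B-1b, Dnmt1 (−0.18 to 0.20), Dnmt3b (−0.28 to 0.27), Idh1 (−0.17 to 0.43), Idh2 (−0.36 to 0.069), Tet1 (−0.35 to 0.47) and Uhrf1 (−0.18 to 0.81), in WT B-1a against B-1b, Dnmt1 (−0.23 to 0.19), Idh2 (−0.13 to 0.062), Tdg (−0.18 to 0.056), Tet2 (−0.15 to 0.41) and Uhrf1 (−0.24 to 0.39), in the B-1a minus B-1b effect, Dnmt1 (−0.28 to 0.20), Dnmt3b (−0.17 to 0.37), Idh1 (−0.41 to 0.19), Idh2 (−0.32 to 0.089), Tet1 (−1.16 to 0.48), Tet2 (−0.072 to 0.49), Tet3 (−0.091 to 0.29) and Uhrf1 (−0.35 to 0.67).

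Counts over all genes moved more. DESeq2 called 185, 49, 147, 3399, 2728, 141 and, in both remaining comparisons, 1 gene, where edgeR called 7, 0, 0, 1080, 399, 38 and 0, in the order TET2-KO against WT for the subsets B-1a, B-1b, B-2, then the comparisons of TET2-KO B-1a against B-2, B-1b against B-2 and B-1a against B-1b. Leaving out 1 library moved these counts to 0 to 6 in TET2-KO against WT B-1a and 0 to 576 in B-2 cells, where the highest was without WT B-2 library 4, to 608 to 2015 in TET2-KO B-1a against B-2 (lowest without B-2 library 2, highest without B-1b library 3), to 177 to 768 in B-1b against B-2 (lowest without B-2 library 2, highest without B-1a library 4) and to 15 to 57 in B-1a against B-1b cells (lowest without B-1b library 1, highest without B-1a library 1). Of the 7 calls among the linked genes, 4 were lost with all 21 libraries in one fit, 7 with the covariate and 1 with RLE size factors. Depth limits Tet1 most, with at most 92 counts in a library.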
